A study of Rattus norvegicus with 12 samples.

Results

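The 6 libraries described here are the vehicle controls of a study of testicular toxicants: 3 small RNA libraries of serum exosomes from rats given water and 3 from rats given corn oil, of 12 libraries in all. They were chosen by their titles, and the water columns of one deposited table were joined to the oil columns of the other by feature name. All animals were male Sprague-Dawley rats of 9 weeks that received a single oral dose of vehicle, with blood taken 24 h later. Water, at 10 mL/kg, was the carrier of EGME (ethylene glycol monomethyl ether), a solvent. Corn oil, at 5 mL/kg, was the carrier of the compound that the labels call CBZ, so volume differs along with vehicle, and the protocol names corn oil also as the carrier of 1,3-DNB. The other 6 libraries came from rats given EGME at 2000 mg/kg or CBZ at 400 mg/kg. Per the labels, blood clotted overnight before serum was taken, 2.7 mL of cleared serum was pelleted at 208000 g for 70 min, and NEBNext small RNA libraries were run on a MiSeq. Whether each numbered library is from its own rat is not stated, so p-values here measure no more than the spread among these libraries, which may be technical in part. Water libraries are columns of the table shared with EGME, and oil libraries of the table shared with CBZ. Vehicle, dose volume and table are 1 split of the samples and cannot be told apart, so each difference below is one between these 2 sets of libraries.

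Serum holds small RNA in vesicles, in protein complexes such as those of Argonaute, and in lipoproteins, and a high-speed pellet takes vesicles together with some of the other particles. Mature miRNAs are cut from hairpins by Drosha and Dicer and find their targets by the seed, bases 2 to 8 from the 5′ end. Much of the rest of serum small RNA is fragments of longer RNAs, among which 5′ fragments of glycine tRNA are well known. Blood cells and liver are the best known sources of miRNA in serum. In pelleted serum, fewer vesicles from a tissue and less of an RNA in each vesicle cannot be told apart. No vesicle protein was measured in the files used here, so the label of serum exosomes could be set only against miRNAs of the tissues that shed into blood.

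The mature sequences below are those of miRNAs that lead the libraries or that separated water from oil. All are RefSeq entries on the rat build GRCr8, 5′ to 3′, and capitals mark the seed. The first 4 share the let-7 seed, and the seed of miR-27a-3p is that of miR-128-3p moved by 1 base.
let-7i-5p: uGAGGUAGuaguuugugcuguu
let-7f-5p: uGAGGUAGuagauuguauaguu
let-7g-5p: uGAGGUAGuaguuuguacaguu
let-7a-5p: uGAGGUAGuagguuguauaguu
miR-128-3p: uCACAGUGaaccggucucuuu
miR-27a-3p: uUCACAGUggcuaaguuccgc
miR-148a-3p: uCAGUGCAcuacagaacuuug
miR-378a-3p: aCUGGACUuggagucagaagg
miR-30a-5p: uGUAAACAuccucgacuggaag
miR-451-5p: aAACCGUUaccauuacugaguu
miR-26a-5p: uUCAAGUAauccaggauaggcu

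A second set of sequences shows where the 2 tables list different names for 1 place in the genome. Each pair below is a miRNA listed in both tables and a miRNA from the opposite strand of the same place in the genome, and capitals mark the run in which one is the exact reverse complement of the other. On GRCr8 the let-7a-5p entry shown lies at chr8:50805219-50805240 and miR-3596a at chr8:50805219-50805240. The pair of miR-378a-3p lies at chr18:57128925-57128945 and chr18:57128924-57128945, and that of let-7f-5p at chr17:16320508-16320529 and chr17:16320508-16320527, each pair on opposite strands.
let-7a-5p: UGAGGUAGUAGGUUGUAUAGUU
miR-3596a: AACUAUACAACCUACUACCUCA
miR-378a-3p: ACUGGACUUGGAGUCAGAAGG
miR-3557-5p: gCCUUCUGACUCCAAGUCCAGU
let-7f-5p: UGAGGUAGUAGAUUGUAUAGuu
miR-3596d: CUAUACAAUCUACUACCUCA

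Depth differed between the groups. Assigned counts were 893864, 970329 and 858906 in the water libraries, against 392677, 196460 and 598200 in the oil libraries. There are 3280 features in the table of water and 1709 in that of oil, of which 1334 stand in both. The shared features hold 99.6% of the counts of water library 1, the lowest share of the 6. A feature had a count in 1423, 1389 and 1327 cases in water and in 839, 978 and 906 in oil. Thinned to the 196460 counts of the shallowest library, the expected numbers were 719, 701 and 718 in water and 654, 978 and 604 in oil. Oil libraries 1 and 3 lay below every water library, and oil library 2, which sets that depth, above them all. With oil library 2 entered, the difference in mean features detected was not larger than the spread between libraries at equal depth. Oil library 2 stood apart, with 26.7% rRNA and the lowest total, and the numbers of calls, with the miRNA calls that it changes, are also given without it. A feature with no count in a library can still have a level of up to 3 counts, or 3.09 to 3.49 CPM (a count scaled to its library's total) in water and 5.02 to 15.3 CPM in oil. The protocol names no molecular identifiers, so floors and intervals cover counting error only.

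As counted in the tables, the same 4 classes led both vehicles: tRNA, Ensembl transcripts typed misc_RNA, mature miRNA and piRNA. The tRNA share was 27.7, 41.7 and 45.6% in the water libraries, against 34.5, 21.7 and 35.8% in the oil libraries. The misc_RNA share was 39.3, 30.3 and 24.9% in the water libraries, against 17.8, 12.4 and 27.5% in the oil libraries. Both group ranges overlapped, at means of 38.3 ± 9.41% in water and 30.6 ± 7.80% in oil for tRNA and 31.5 ± 7.26% in water and 19.3 ± 7.64% in oil for misc_RNA (SD, n = 3 each). Exact permutation tests gave p = 0.4 for tRNA (adjusted over the classes 0.756) and p = 0.2 for misc_RNA (0.425), two-sided. With near-identical gene copies counted once, tRNA averaged 8.62% in water and 6.57% in oil, behind misc_RNA, miRNA and piRNA in both. The oil mean of rRNA, 10.1%, was also above that of tRNA, but through oil library 2 alone. There rRNA took 1.59, 27.9 and 0.885% in the oil libraries, against 7.56, 4.73 and 7.42% for tRNA. Counted so, misc_RNA took 51.8, 47.6 and 41.4% in the water libraries, against 26.8, 16.2 and 40.3% in the oil libraries, where the groups no longer overlap (exact permutation p = 0.1). Mature miRNA took 25.6, 17.6 and 18.1% in the water libraries, against 14.7, 26.4 and 22.1% in the oil libraries. The mean miRNA share was 20.4 ± 4.51% in water and 21.1 ± 5.93% in oil (SD, n = 3 each), a difference well inside the spread between libraries (exact permutation p = 0.9). The exact 95% binomial (Clopper-Pearson) interval of a class share in 1 library was at most 0.392 percentage points wide. That is far less than the distance between libraries. The interval takes each count as a separate read, which counts of near-identical copies may not be.

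Of 17 classes, 7 had water and oil libraries that did not overlap, all at the smallest exact permutation p that 3 against 3 allows, 0.1 (0.243 after Benjamini-Hochberg adjustment over the classes). The piRNA share was 6.36, 8.95 and 9.81% in the water libraries, against 27.5, 11.5 and 12.6% in the oil libraries. Every oil library was above every water library, with oil library 1 far above the other two, but the ranges met when near-identical gene copies were counted once. Ribosomal RNA made up 0.567, 0.945 and 1.08% in the water libraries, against 5.03, 26.7 and 1.67% in the oil libraries. Oil library 2 decides the size of that difference: the oil mean exceeded the water mean by 10.3 percentage points with it and by 2.49 without it. The piRNA difference rests in part on oil library 1, at 8.83 percentage points with it and 3.67 without it. Mitochondrial rRNA and mitochondrial tRNA were also above in every oil library, at means of 0.0236 ± 0.00671% in water and 0.180 ± 0.211% in oil for the rRNA and 0.00884 ± 0.00202% in water and 0.0349 ± 0.0180% in oil for the tRNA (SD, n = 3 each). Without oil library 2 the oil means of these exceeded the water means by 0.0356 and 0.0164 percentage points, against 0.157 and 0.0261 with it. The scaRNA class, guides that direct modification of spliceosomal RNA in Cajal bodies, ran the other way, with 0.0480, 0.102 and 0.0865% in the water libraries, against 0.00280, 0.00662 and 0.00150% in the oil libraries. Antisense and sense-intronic transcripts, each below 0.003% of any of the 6 libraries, were the remaining 2.

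**Figure D1:**
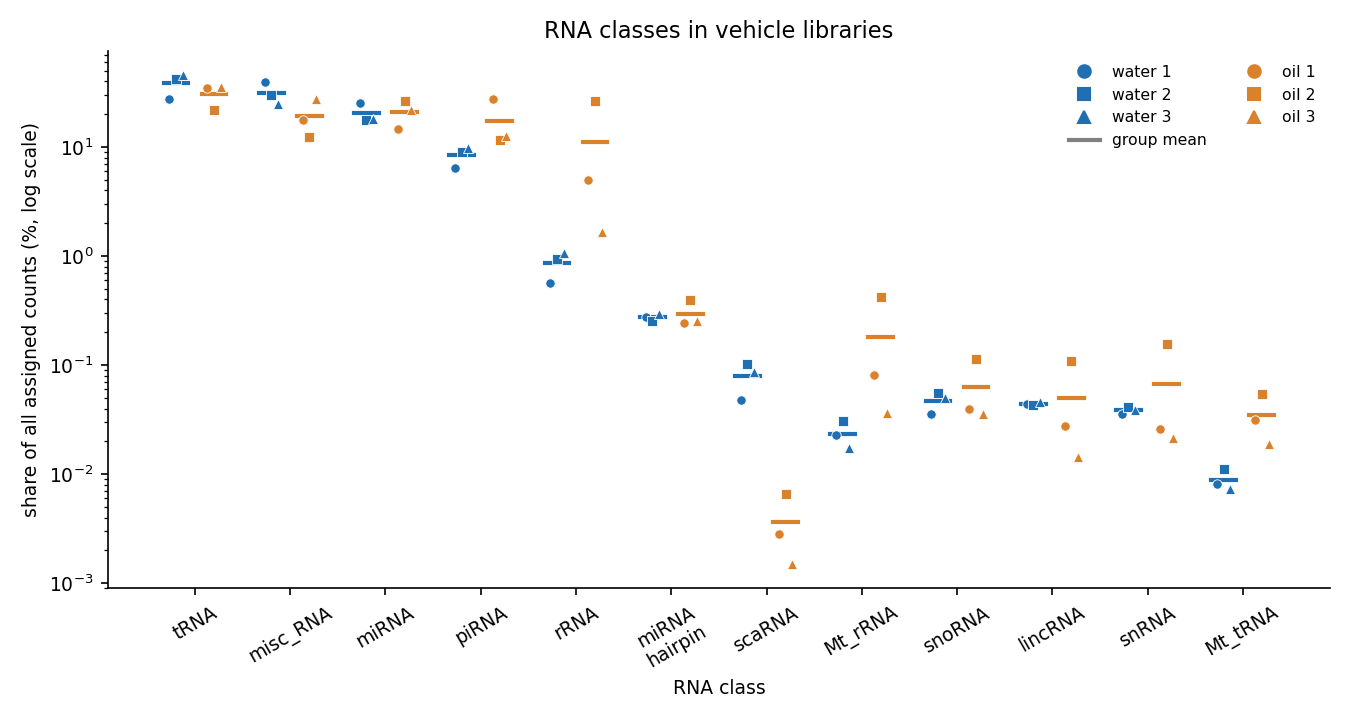
Share of all assigned counts taken by each RNA class in each vehicle library (percent, log scale), water libraries left of oil libraries, with the group mean as a bar. tRNA, misc_RNA and miRNA overlap between the groups, while scaRNA lies higher in all 3 water libraries and piRNA, rRNA, Mt_rRNA and Mt_tRNA lie higher in all 3 oil libraries.

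With all gene copies counted, glycine tRNA was nearly all of the tRNA signal under both vehicles. Its share of tRNA counts was 95.6, 96.4 and 94.3% in the water libraries, against 95.8, 93.5 and 97.3% in the oil libraries (exact permutation p = 0.9). With near-identical gene copies counted once, it was 90.0, 91.7 and 88.2% in the water libraries, against 90.1, 77.0 and 93.3% in the oil libraries. The anticodon GCC alone held 84.1% on average in water and 84.1% in oil, and CCC 11.3% in water and 11.4% in oil. The 8 leading genes, whose counts were nearly equal in every library, carried about 11.3% each, so the choice of gene says little. Reads divided among these genes and reads counted under each were not told apart. Among them is chr2.trna4358-GlyCCC, with 28059, 45831 and 43689 counts in water, against 28058, 45836 and 43698 for chr10.trna11254-GlyGCC. It alone carried nearly all of the CCC share, so the split between GCC and CCC says little as well. Histidine, valine, glutamate and lysine tRNAs followed, and none separated the vehicles as a share of tRNA counts. Histidine tRNA held 1.29, 0.980 and 2.65% in the water libraries, against 0.664, 1.18 and 0.916% in the oil libraries, highest in water library 3. On the scale of all classes, chr19.trna4063-HisGTG had 372.5, 473.3 and 1300 CPM in the water libraries, against 238.4, 189.7 and 330.1 CPM in oil. These did not overlap, as for 28.2% of all features tested, and fell short of the edgeR quasi-likelihood test (adjusted p = 0.193). Lysine tRNA held 0.479, 0.475 and 0.396% in the water libraries, against 0.460, 1.98 and 0.267% in the oil libraries, and oil library 2 was alone in its high value. With copies counted once, lysine tRNA held 8.61% in oil library 2. With all copies counted and each count taken as a separate read, no amino acid share had an interval wider than 0.47 percentage points in 1 library. With copies counted once, the interval of the glycine share in oil library 2 was 76.0 to 77.9%.

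Serine was the exception among the tRNAs with enough counts to compare. As a share of tRNA counts, serine tRNA held 0.0182, 0.0131 and 0.0135% in the water libraries, against 0.105, 0.108 and 0.0701% in the oil libraries, with every oil library above every water library (exact permutation p = 0.1, adjusted 0.733 over 22 classes of tRNA). The difference lay in the anticodons AGA and TGA and not in GCT. SerAGA held 0, 4.94e-04 and 2.55e-04% in the water libraries, against 0.0621, 0.0611 and 0.0458% in the oil libraries, and SerTGA averaged 2.99e-04% in water and 0.0222% in oil. SerGCT held 0.0166, 0.0114 and 0.0133% in the water libraries, against 0.0207, 0.0188 and 0.00748% in the oil libraries, where the groups overlap. Of the features listed in the oil table only, the 4 with the most oil counts were 2 SerTGA and 2 SerAGA genes. Tryptophan tRNA was also above in every oil library, at 0.00404, 0.00198 and 0.00306% in the water libraries, against 0.00739, 0.0870 and 0.00748% in the oil libraries, a level set mainly by oil library 2. Isoleucine tRNA, at 0.00134% in water and 4.02e-04% in oil on average, was the third that did not overlap, on a handful of counts.

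The leading 4 piRNAs made up nearly all piRNA counts in both groups. piRNAs are germ line RNAs that guide PIWI proteins, and piRNA catalogues also hold fragments of other non-coding RNAs. As a share of piRNA counts, piR-63429 took 25.2, 27.2 and 24.7% in the water libraries, against 45.8, 21.1 and 25.8% in the oil libraries. piR-63455 took 21.3, 29.2 and 25.0% in the water libraries, against 27.1, 35.3 and 34.8% in the oil libraries, and piR-63454 followed it closely in each library. piR-64122 took 30.5, 13.3 and 24.0% in the water libraries, against 2.04, 5.64 and 6.54% in the oil libraries, and all 3 water libraries were above all 3 oil libraries. No interval of these shares was wider than 1.25 percentage points. On the scale of all classes, piR-64122 had 20025, 13714 and 25343 CPM in the water libraries, against 5783, 5046 and 8369 CPM in the oil libraries, a log2 difference of 1.62 ± 0.43 (SE) that did not pass the edgeR quasi-likelihood test (adjusted p = 0.168). piR-63429 had 16552, 27926 and 26010 CPM in the water libraries, against 129478, 18912 and 33049 CPM in the oil libraries, also short of the test (adjusted p = 0.289). Of the 18 piRNAs tested, 8 were higher in water, 10 lower and none past the edgeR threshold, 3 of them with an unadjusted p under 0.05 and 2 called by the DESeq2 Wald test; over all classes 4 of 309 features (1.29%) passed. Without oil library 2, where 44 of 350 features over all classes were called (12.6%), the same test called 3 piRNAs higher and 3 lower, piR-64122 (adjusted p = 0.00746) and piR-63429 (2.53e-05) among them. The tables differ more in the piRNAs they list, 1101 in the water table and 141 in the oil table, with 82 in both. A piRNA had a count in 279, 231 and 229 cases in the water libraries, against 56, 57 and 59 in the oil libraries, and at equal depth in an expected 90.9, 74.0 and 81.5 against 43.9, 57 and 39.4.

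A single misc_RNA transcript, ENSRNOT00000090410.1, was the most abundant feature of both group means. Ensembl's misc_RNA type collects Y RNAs, vault RNAs, 7SK and other RNAs, and the transcript's name was not matched here. Of all counts it held 39.2, 30.2 and 24.8% in the water libraries, against 17.7, 12.0 and 27.4% in the oil libraries. Water libraries 1 and 2 were above all oil libraries, and water library 3 lay below oil library 3. It was 1.84-fold higher in water, short of the test (adjusted p = 0.291, edgeR). The other 21 misc_RNA transcripts tested were lower in water in all 21 cases, none past the test, and oil library 2 carried that: with it the class median was a log2 difference of -1.24, and without it 0.22.

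Ribosomal transcripts fell into 2 patterns. A set of 7 near-identical rRNA transcripts, of which ENSRNOT00000077643.1 is one, had 609, 1116 and 1135 counts in the water libraries, against 2543, 331 and 968 counts in the oil libraries, highest in oil library 1. A second set had nearly all of its counts in oil library 2, as ENSRNOT00000053226.3 with 86, 179 and 181 counts in the water libraries, against 304, 8455 and 543 counts in the oil libraries. Its log2 difference was -6.03 ± 1.72 (adjusted p = 0.168) with oil library 2 and -2.34 without it (adjusted p = 3.10e-04, edgeR). Of 29 rRNA transcripts tested, 28 were lower in water, and none passed the test with all 6 libraries. Both mitochondrial rRNAs were lower in water, ENSRNOT00000040038.3 at 55, 72 and 42 counts in the water libraries, against 91, 435 and 65 counts in the oil libraries (adjusted p = 0.168). Its oil libraries were all above the water libraries on the CPM scale, at 63.6, 85.2 and 52.5 CPM in the water libraries, against 238, 1719 and 111 CPM in the oil libraries. Of 14 snoRNAs tested, which guide rRNA modification, 6 were higher in water and 8 lower, with a median of -0.15, and of 4 spliceosomal snRNAs 3 were higher and 1 lower, with a median of 0.46, none past the test.

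Over all classes, 309 features passed the filter on low counts and 4 were called between water and oil, 3 higher (0.971%) and 1 lower (0.324%). At an unadjusted p under 0.05 there were 60, and the DESeq2 Wald test called 33. The water and oil libraries did not overlap for 87 features (28.2%), and the median log2 difference over the 309 was 0.00. The transcript called most firmly was a scaRNA, ENSRNOT00000081692.1, with 419, 977 and 726 counts in the water libraries, against 5, 4 and 5 counts in the oil libraries. It was 69.4-fold higher in water (log2 difference 6.12 ± 0.57 SE, adjusted p = 0.00104, edgeR), and the 3 water libraries were far above every oil library. It was near-all of the scaRNA signal in water. ENSRNOT00000078962.1, typed as a miRNA hairpin transcript, had 41, 58 and 63 counts in the water libraries, against 1, 0 and 0 counts in the oil libraries. Its ratio of pooled counts was 70.6, with an exact 95% counting interval of 12.5 to 2807. It is 1 of 6 near-identical transcripts, and the other called hairpin transcript, ENSRNOT00000080615.1, is another. The other 4 copies are listed in the water table only. The feature called lower was miR-378a-3p. The count moved with the libraries entered: it was 44 without oil library 2 (9 higher, 35 lower, 26 of them rRNA), 37 without oil library 3, and 1 without water library 1 or water library 3.

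The miRNA profile was led by miR-148a-3p under both vehicles. As a share of miRNA counts, miR-148a-3p, abundant in liver and in serum, took 35.9, 31.3 and 32.8% in the water libraries, against 19.4, 48.0 and 41.2% in the oil libraries. The oil libraries spread far more than the water libraries, with oil library 1 the lowest and oil library 2 the highest of all. let-7i-5p, of the let-7 family that restrains growth genes, took 18.2, 19.0 and 16.9% in the water libraries, against 11.1, 9.03 and 10.8% in the oil libraries. Every water library was above every oil library. let-7f-5p held 7.21, 8.43 and 6.93% in the water libraries, against 7.75, 7.11 and 7.10% in the oil libraries, with no separation. No interval of a miRNA share in 1 library was wider than 0.861 percentage points.

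Red blood cell and broadly expressed miRNAs filled the next ranks. Of miRNA counts, miR-486, from red blood cells, held 6.27 ± 1.29% in water and 7.30 ± 2.61% in oil (SD, n = 3 each). let-7g-5p held 5.07 ± 0.805% in water and 4.10 ± 1.50% in oil. miR-140-3p, best known from cartilage, held 3.23 ± 0.934% in water and 2.66 ± 1.00% in oil. For each of these the libraries of the groups overlapped. miR-21-5p, which many tissues raise on injury, held 1.99 ± 0.272% in water and 2.02 ± 0.404% in oil. miR-25-3p, of the miR-106b cluster, held 1.60 ± 0.423% in water and 1.47 ± 0.464% in oil. These 2 overlapped as well. miR-26a-5p, a repressor of the Polycomb gene Ezh2, took 2.78, 2.48 and 2.33% in the water libraries, against 8.58, 3.01 and 3.33% in the oil libraries. It was lower in each water library than in each oil library, by a margin that the edgeR test of miRNAs alone left at an adjusted p of 0.0691 (0.0290 without oil library 2). miR-215, of gut, liver and kidney, took 1.31, 0.992 and 1.43% in the water libraries, against 4.61, 0.916 and 1.69% in the oil libraries, high in oil library 1 alone. Of the 10 leading miRNAs of each group, 8 were shared by name: miR-451-5p and miR-25-3p were among the 10 in water only, miR-128-3p and miR-215 in oil only. The 10 leading miRNAs of a library held 80.3% to 82.3% of its miRNA counts in water and 74.4% to 83.7% in oil.

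**Figure D2:**
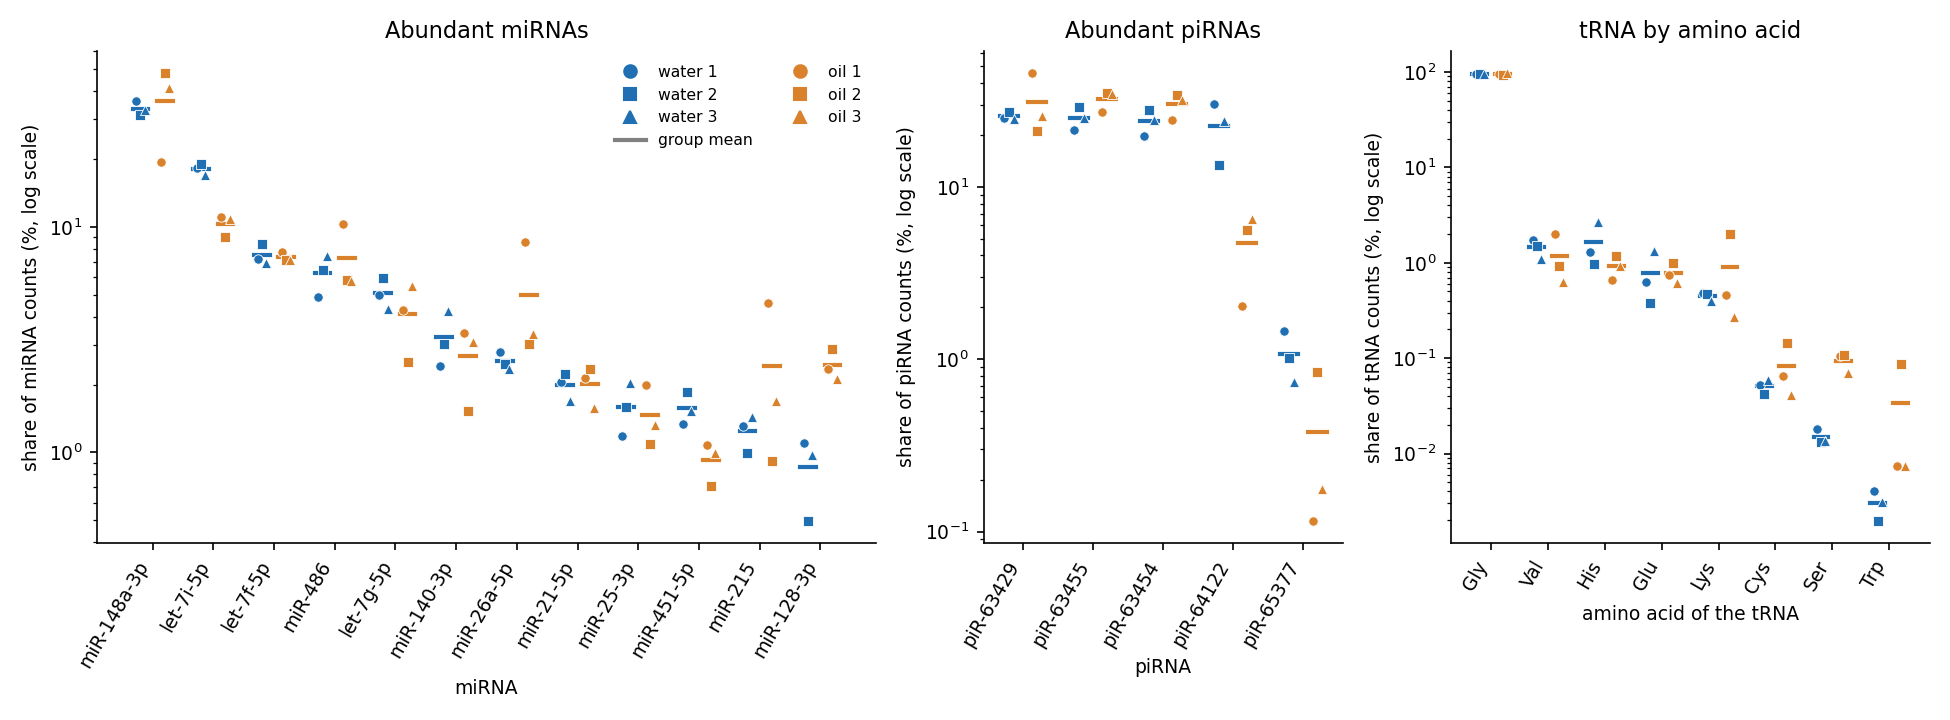
Shares of miRNA, piRNA and tRNA counts (percent, log scale) taken by the leading miRNAs, the leading piRNAs and the tRNAs of 8 amino acids in each vehicle library, water left of oil, with group means as bars. let-7i-5p and piR-64122 lie higher in all 3 water libraries, and miR-128-3p and serine tRNA lie higher in all 3 oil libraries. Glycine tRNA, with all gene copies counted, is near 95% in all 6.

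Before miRNAs are compared, the names they are counted under differ between the tables. Of 24 miRNAs that stand in both tables and have a reverse-complement partner in only 1 of them, all 24 partners are in the water table and 0 in the oil table. The partners had 0 counts in the 6 oil and CBZ libraries. let-7a-5p had 1463, 818 and 971 counts in the water libraries, and miR-3596a, its exact complement, had 1443, 819 and 976 in the same libraries. Those 2 names had nearly equal counts in each library. In the EGME libraries let-7a-5p had 1609, 1263 and 2438 counts and miR-3596a 1618, 1269 and 2433. Reads divided between the names and reads counted under both were not told apart by a test. miR-378a-3p had 135, 136 and 111 counts in water, and its partner miR-3557-5p had 775, 623 and 675. In the oil libraries miR-378a-3p had 249, 122 and 354 counts and let-7a-5p 926, 620 and 1797, with no partner counts. miR-3596d, the partner of let-7f-5p, held 3.16% of the counts of that pair in water. Over the 13 pairs with at least 20 counts in water, the partner held 3.16% to 92.3% of the pair, with a median of 42.9%. The EGME libraries, of the same table as water, showed the same names: 87, 119 and 97 counts of miR-378a-3p and 662, 677 and 780 of miR-3557-5p. How each read was assigned to a name is not given in the sources used here. Summing a pair, as done below beside the deposited names, assumes that each read was counted under 1 name. If reads were counted under both, the sum counts them once too often.

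**Figure D3:**
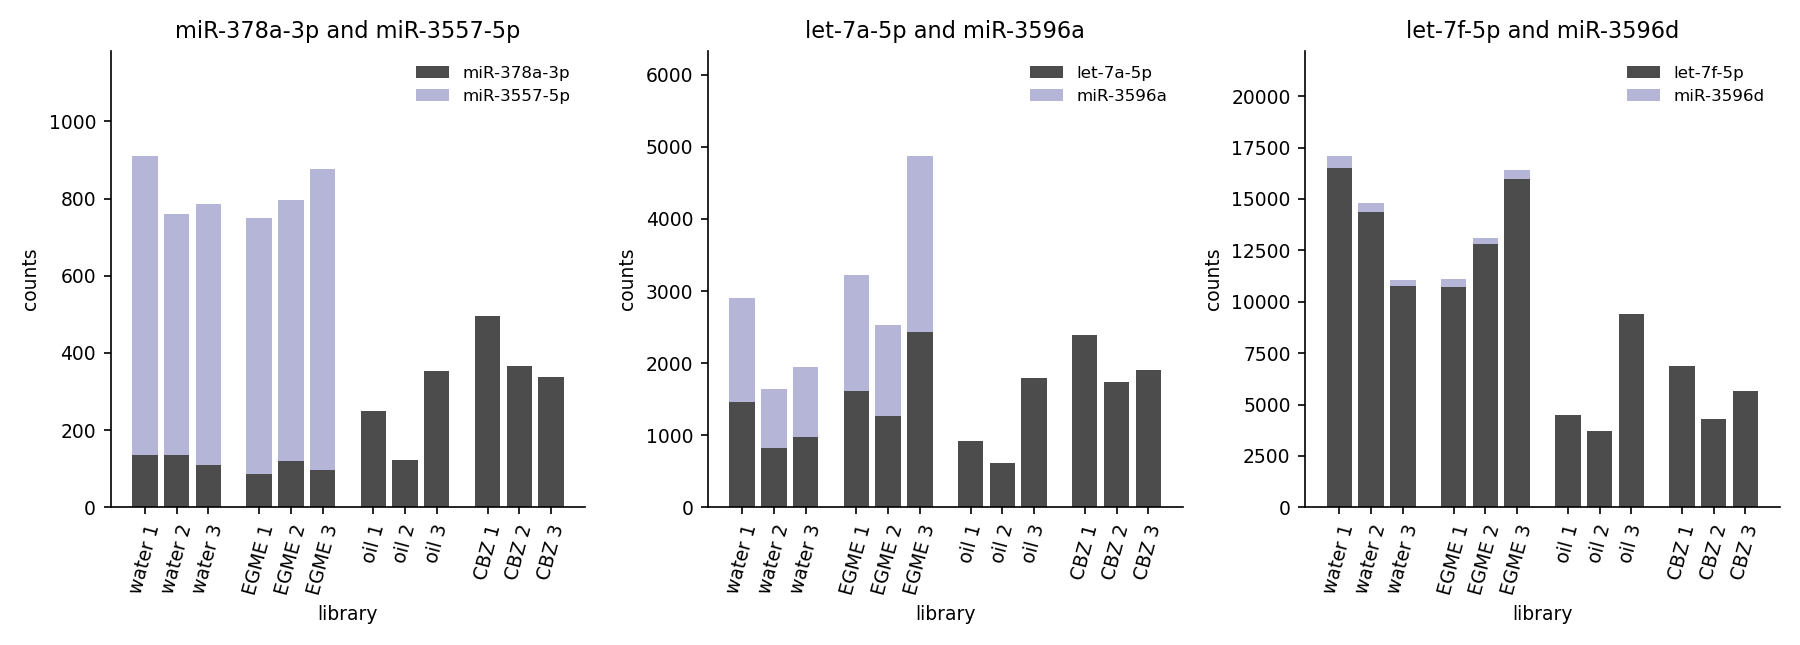
Counts of 3 miRNAs and of the miRNAs named from the opposite strand at the same place, stacked, in all 12 libraries of the series (water and EGME from one table, oil and CBZ from the other). The opposite-strand name has counts in every water and EGME library and 0 in every oil and CBZ library, and it holds most of the pair for miR-378a-3p, about an equal part for let-7a-5p and little for let-7f-5p.

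Scaled among themselves, 119 miRNAs were tested and 16 (13.4%) passed an adjusted p of 0.05 in the edgeR quasi-likelihood test, 6 higher in water (5.04%) and 10 lower (8.4%). The median log2 difference over all 119 was -0.12, 37 had an unadjusted p under 0.05, and 38 (31.9%) had groups that did not overlap. CPM from here on is relative to a library's miRNA counts alone, with TMM scaling. miR-30a-5p, of a family found in liver, kidney and heart, was the clearest of those higher in water, with 6253, 7722 and 6088 CPM in the water libraries, against 3788, 1918 and 3538 CPM in the oil libraries. All water libraries were above all oil libraries, and the rise was 2.16-fold (log2 difference 1.11 ± 0.28 SE, adjusted p = 0.0108). miR-30a-3p, the other arm of its hairpin, also rose (0.90, adjusted p = 0.0481). miR-30e-3p, of a sister hairpin, had 2106, 2199 and 2167 CPM in the water libraries, against 1073, 949 and 1101 CPM in the oil libraries. It rose by 1.05 on the log2 scale (adjusted p = 0.0268), with no overlap between the groups. Its 5′ arm, miR-30e-5p, was at -0.53 and did not pass (adjusted p = 0.236).

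Also higher were miR-451-5p and miR-150-5p, from blood cell lists whose other members had differences of both signs. miR-451-5p, which is cut by Argonaute 2 without Dicer and fills red blood cells, had 14389, 18900 and 15799 CPM in the water libraries, against 8278, 7277 and 11878 CPM in the oil libraries, with no overlap between the groups. It rose 1.79-fold (log2 difference 0.84 ± 0.29 SE, adjusted p = 0.0481). miR-150-5p, of mature lymphocytes, had 3028, 2392 and 2792 CPM in the water libraries, against 2079, 1009 and 1110 CPM in the oil libraries. It rose 1.95-fold (adjusted p = 0.0481), and oil library 1 was the nearest to the water libraries. miR-374-5p rose most, 2.45-fold (adjusted p = 0.0481), from few counts: 44, 45 and 31 counts in the water libraries, against 9, 3 and 10 counts in the oil libraries. Without oil library 2 these 3 no longer passed (adjusted p = 0.0732 for miR-451-5p, 0.0732 for miR-150-5p and 0.121 for miR-374-5p). let-7i-5p, the second most abundant, was higher by 0.88 without passing (adjusted p = 0.0610).

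Lower in water were miRNAs of several kinds, and miR-378a-3p led them under its deposited name. miR-378a-3p, from an intron of Ppargc1b and tied to energy use in muscle and fat, had 632, 817 and 738 CPM in the water libraries, against 3298, 2413 and 3195 CPM in the oil libraries. It fell 4.08-fold (log2 difference -2.03 ± 0.31 SE, adjusted p = 1.43e-05), the water libraries far below the oil libraries. With miR-3557-5p added, the difference turned to 0.69 in the other direction (adjusted p = 0.0549). let-7a-5p had 6848, 4916 and 6454 CPM in the water libraries, against 12264, 12261 and 16219 CPM in the oil libraries, again without overlap. It fell 2.24-fold (adjusted p = 0.00784), and with miR-3596a added the difference was -0.13 (adjusted p = 0.771). For this pair of nearly equal counts, the sum may count reads of the water libraries once too often. miR-191a-3p, at 5, 6 and 9 counts in the water libraries, against 8, 5 and 13 counts in the oil libraries, was the third of the 10 with such a partner. Its log2 difference was -1.48 as deposited (adjusted p = 0.0340) and -0.58 with miR-191b added (adjusted p = 0.450).

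The other miRNAs that fell have no such partner among the pairs. miR-128-3p, best known from brain, had 11852, 5108 and 10063 CPM in the water libraries, against 17999, 29406 and 25200 CPM in the oil libraries. Every oil library was above every water library, of which water library 2 was the lowest. It fell 2.69-fold (log2 difference -1.43 ± 0.31 SE, adjusted p = 0.00266), and its log2 difference with pairs summed was -1.42 (adjusted p = 0.00626). miR-27a-3p, which restrains fat cell formation, fell 1.89-fold (adjusted p = 0.0481), but oil library 2, at 2808 CPM, lay inside the water range of 2380 to 3094 CPM. Its cluster mate miR-24-2-5p fell 1.96-fold (adjusted p = 0.0340), from 117, 68 and 69 counts in the water libraries, against 61, 42 and 125 counts in the oil libraries. miR-185-5p, known as a repressor of cholesterol genes, had 1039, 1244 and 904 CPM in the water libraries, against 1934, 1641 and 2401 CPM in the oil libraries and fell 1.88-fold (adjusted p = 0.0481). miR-339-5p fell 2.76-fold (adjusted p = 0.0206) at 27, 20 and 10 counts in water, against 24, 15 and 30 in oil. miR-191a-5p, often used as a reference in blood assays, fell 1.78-fold (adjusted p = 0.0481), with 11622, 10012 and 8468 CPM in the water libraries, against 20091, 15544 and 17826 CPM in the oil libraries.

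The number of miRNAs called rested on single libraries. It was 1 without water library 2, miR-378a-3p, and 6 without water library 1, against 12 to 18 when any other library was left out. Without oil library 2 it was 12 of 133 (9.02%), 9 of them among the 16. Besides miR-451-5p, miR-150-5p and miR-374-5p, the calls lost there were those of miR-30a-3p (adjusted p = 0.211), miR-24-2-5p (0.0593), miR-191a-3p (0.0982) and miR-22-3p (0.233). The 3 gained, all lower in water, were miR-215 (adjusted p = 0.00619), miR-26a-5p and miR-320-3p (0.0290), the last named after its value was seen. Without scaling among miRNAs it was 4, all lower in water, and with the pairs summed 15, 9 higher and 6 lower. Of the 16, 12 were still called with the pairs summed.

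**Figure D4:**
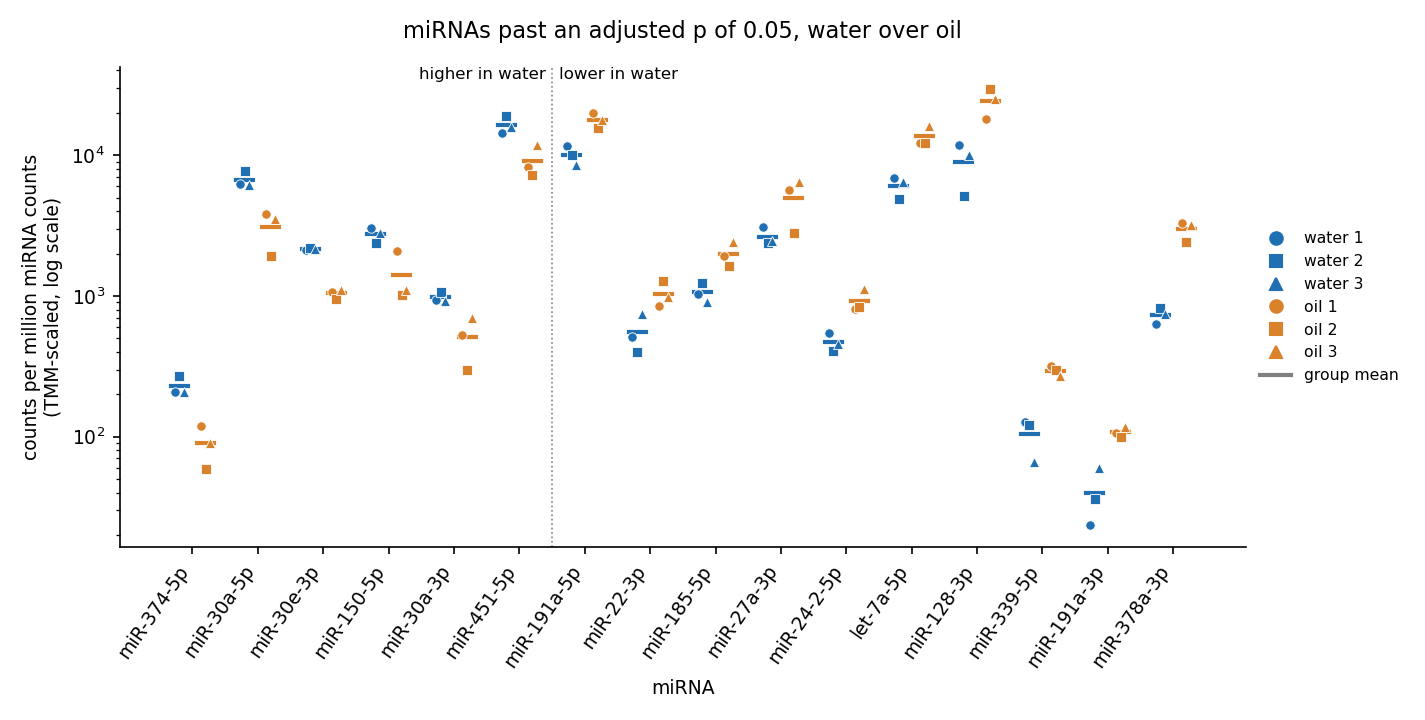
Level of each of the 16 miRNAs called between water and oil in each vehicle library (CPM of miRNA counts after TMM scaling, log scale), water left of oil, with group means as bars; the dotted line parts the 6 higher in water from the 10 lower. The groups overlap for miR-27a-3p only, through oil library 2.

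Members of some seed families had differences of both signs, and those of others had 1 sign. The 9 let-7 members share 1 seed, and 6 were higher and 3 lower in water, with 1 called, let-7a-5p, against 13.4% called over all miRNAs tested. The median was a log2 difference of 0.11, against -0.12 over all miRNAs tested. They ran from -1.16 for let-7a-5p to 0.88 for let-7i-5p under the deposited names. With pairs summed, the range was -0.21 for let-7e-5p to 0.92 for let-7i-5p, let-7a-5p was no longer called, and let-7i-5p was (adjusted p = 0.0420). The 9 together held 33.0% of miRNA counts in water and 24.9% in oil on average. Of 5 tested members of the miR-30 family, 4 were higher and 1 lower, with a median of 0.26 and miR-30a-5p alone called. miR-27a-3p was at -0.92 and miR-27b-3p, of the same seed, at 0.34 (adjusted p = 0.455). miR-26a-5p and miR-26b-5p were both lower, at -0.78 and -0.19, neither past the test. Of 8 tested members of the miR-17-92 cluster and its relatives, which drive growth of blood cells, 3 were higher and 5 lower, none called, with a median of -0.26.

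Lists of miRNAs by likely source gave no common direction. Of 12 tested red blood cell miRNAs, 5 were higher in water and 7 lower, with miR-451-5p called higher and miR-185-5p lower, against 5.04% called higher and 8.4% lower over all miRNAs tested. The median was -0.05, against -0.12 over all miRNAs tested. They held 8.98% to 12.7% of miRNA counts in water libraries and 8.90% to 15.8% in oil libraries. miR-486, the most abundant, was at -0.09 (adjusted p = 0.841) and miR-16-5p at 0.39. Of 9 platelet miRNAs, 4 were higher and 5 lower, 2 called lower (miR-339-5p and miR-191a-5p) against 8.4% over all, with a median of -0.42. The defining platelet and myeloid miRNA miR-223-3p was at -0.42 (adjusted p = 0.399) and miR-126a-3p at 0.03. Of 8 white blood cell miRNAs, 4 were higher and 4 lower, miR-150-5p alone called, higher, against 5.04% over all, with a median of -0.09. The part of blood cells in these differences was not tested.

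Liver miRNAs were present in every library. Of 9 tested, 5 were higher and 4 lower in water, with miR-30a-5p called higher, against 5.04% over all, and a median of 0.52. miR-122-5p, nearly specific to hepatocytes, had 1195, 280 and 321 counts in the water libraries, against 144, 157 and 151 counts in the oil libraries. Water library 1 was far above the other 5, and the log2 difference of 0.58 did not pass (adjusted p = 0.398). Of 7 tested miRNAs of lipid and cholesterol control, listed because the vehicles differ in fat, 2 were higher and 5 lower, with miR-27a-3p and miR-378a-3p called lower, against 8.4% over all, and a median of -0.24. With pairs summed the median was -0.10 and miR-378a-3p was at 0.69, not called. miR-33-5p, from a Srebf gene, had 0 counts in each water library and 1, 1 and 0 in the oil libraries. Of 6 tested vascular and fibroblast miRNAs, 4 were higher and 2 lower, none called, with a median of 0.21.

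Markers of more distant tissues differed widely in level. Testis miRNAs, of which miR-34c-5p is the best known, had 6, 4 and 3 counts in water and 3, 1 and 0 in oil for miR-34c-5p, while the whole list of 11 that the tables name held at most 0.00903% of miRNA counts in any vehicle library and none passed the filter on low counts. Of 2 tested muscle miRNAs both were lower, miR-378a-3p called, against 8.4% called lower over all miRNAs tested. The median was -1.19 as deposited, against -0.12 over all miRNAs tested, and 0.36 with pairs summed. miR-1-3p had 9, 30 and 37 counts in the water libraries, against 7, 23 and 11 counts in the oil libraries, and miR-133a-3p had 2, 0 and 1 in water and 0 in each oil library. Of 3 tested brain and endocrine miRNAs, 1 was higher and 2 lower, miR-128-3p called lower, against 8.4% over all, with a median of -0.28. miR-9a-5p had at most 3 counts in a library, and the list's levels, 1.18% to 1.50% of miRNA counts in water libraries and 2.52% to 3.34% in oil libraries, are mostly those of miR-128-3p and miR-7a-5p. miR-375-3p had 23, 16 and 28 counts in the water libraries, against 17, 5 and 15 counts in the oil libraries. miR-10a-5p, of kidney and other epithelia, had 245, 269 and 421 counts in the water libraries, against 125, 111 and 166 counts in the oil libraries. Of 3 tested in the kidney and epithelial list, 1 was higher and 2 lower, none called, with a median of -0.18.

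The 2 arms of a hairpin had log2 differences of opposite sign in 7 of the 16 hairpins with both arms tested. miR-27a-5p was at 0.96 (adjusted p = 0.0782) and miR-27a-3p at -0.92, miR-148a-5p at 1.00 (adjusted p = 0.0981) and miR-148a-3p at -0.12, and miR-30e-5p at -0.53 and miR-30e-3p at 1.05. Both arms of miR-30a were higher, and both of miR-191a and miR-339 lower. Over the 106 miRNAs tested that have a RefSeq sequence (89.1%), GC content and the log2 difference had a Pearson r of -0.07 and a Spearman rho of -0.02, and length an r of 0.09, as a description across miRNAs that share 6 libraries. Of these 106, 26 ended in A, 12 in C, 32 in G and 36 in U, and of the 10 called lower in water 1 ended in A, 2 in C, 3 in G and 4 in U.

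The treated libraries of the same tables give the size of each difference where no vehicle library enters. EGME over CBZ carries the table, the vehicle and the toxicants together. Among miRNAs alone, 44 of 129 (34.1%) were called there. Of the 16 miRNAs called between water and oil, 15 had the same sign and 11 were called in the same direction. miR-451-5p was at 1.48 (adjusted p = 0.00177), miR-30a-5p at 1.03 (0.00880) and miR-30e-3p at 1.17 (0.00177), higher in EGME in the edgeR test. miR-128-3p was at -1.06 (0.0192), let-7a-5p at -0.90 (0.00974) and miR-378a-3p at -2.65 (6.80e-05), lower in EGME under the deposited names. With pairs summed, let-7a-5p was at -0.03 (adjusted p = 0.969) and miR-378a-3p at 0.20 (0.540), and 9 of the 16 were called in the direction that water over oil had with pairs summed. miR-150-5p, at 0.31, did not pass (0.439). The exception in sign was miR-185-5p, at 0.06 (0.853).

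Over the 116 miRNAs tested in both comparisons, 91 had the same sign, with a Pearson r of 0.70 and a Spearman rho of 0.68 (r 0.63 with pairs summed, over 117). These are descriptions, since the miRNAs of a library share its depth and its table. Over all classes 83 of 258 features (32.2%) were called in EGME over CBZ. The 251 tested in both had an r of 0.18, and 141 had the same sign; without rRNA the r was 0.41 over 229. The scaRNA ENSRNOT00000081692.1 stood at 5.00 in EGME over CBZ and was called there. The hairpin transcript ENSRNOT00000078962.1 was at 0 in all 3 CBZ libraries and above 0 in all 3 EGME libraries, and no fold is given for it. piR-64122 stood at 2.84 (adjusted p = 1.84e-04). Of 62 tRNA genes tested in both comparisons, 30 were called in EGME over CBZ, all lower in EGME, against 44 called lower of the 251 features. In water over oil 61 of 74 tRNA genes were higher in water and none was called, against 154 of 309 features higher over all classes. Near-identical gene copies enter these numbers one by one. Of the tRNA genes listed, 34 are such copies of another, so the numbers of tRNA genes repeat some values and are not counts of separate signals.

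**Figure D5:**
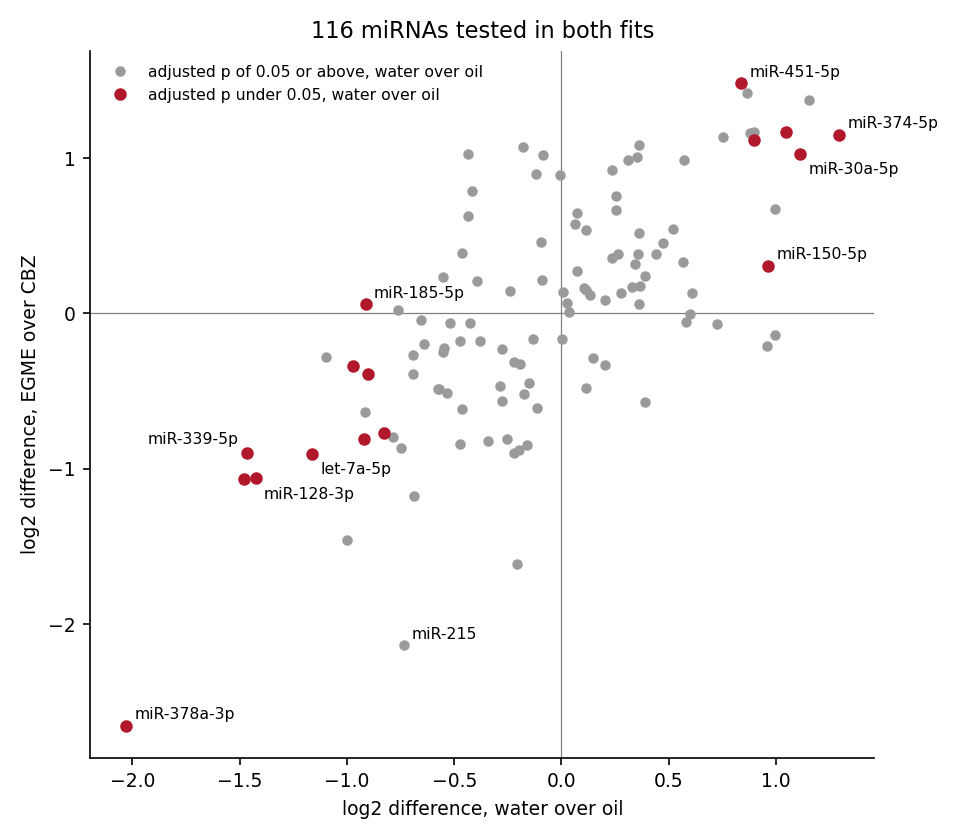
Log2 difference of each of 116 miRNAs in water over oil (horizontal) and in EGME over CBZ (vertical), from the fits of miRNAs alone; red points passed the test in water over oil. Of the 16 red points, 15 lie in the quadrants of equal sign, and miR-185-5p lies at -0.91 and 0.06.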

How the data were processed

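Small RNA of pelleted rat serum was counted in 12 libraries, of which the 3 water and 3 oil libraries are compared here, grouped by their titles. The values are the authors' raw counts per feature, deposited in 2 tables, water with EGME and oil with CBZ, which were joined by feature name over the 1334 features in both. The submitters' processing notes name edgeR. Aligner, genome build, annotation and the treatment of reads with several matches: not given in the sources used here. The deposited normalized tables were not used, since each was normalized separately. The members and lists were chosen with earlier results of these data known.

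Differences were tested with edgeR 4.0.16 (limma 3.58.1, R 4.3.3): TMM, filterByExpr (minimum count 10), robust quasi-likelihood fit, Benjamini-Hochberg adjusted p of 0.05, two-sided, once over all classes and once over mature miRNAs alone. DESeq2 1.42.0 was an alternative. The fit was also run on simulated counts, which spread less between libraries than the data over all classes. That run therefore does not measure how reliable the calls here are. Class and tRNA shares were compared by exact permutation (Python 3.11.15, scipy 1.17.1), and exact 95% Clopper-Pearson intervals were given. Reverse-complement miRNA names were paired over runs of at least 18 bases among the 398 of 436 listed miRNAs with a RefSeq sequence. Features were taken as near-identical copies where their counts lay within 5% or 3 counts of each other in the libraries, at a mean of at least 20. Named miRNAs were the 10 most abundant of each group, the 8 called with the smallest p in each direction, and list members. Other classes had the 4 most abundant and the 3 called with the smallest p. The 2 miRNAs called lower beyond these appear in the plot of called miRNAs, one of them also as a list member. Alternatives were other scalings, filters, a replicate block, pairs summed, copies counted once, all 12 libraries in 1 fit, all features of either table, and each library left out.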

Additional observations from a re-analysis of the deposited data

How the results depend on the processing

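The limits are those of 3 libraries a group, of unequal depth, and of 2 tables that name some RNAs differently. Over all classes, the 4 features called became 33 with the DESeq2 Wald test, 33 with all 12 libraries in 1 fit, 35 without a filter and 25 over all features of either table, and 1 to 44 when 1 library was left out, most without oil library 2 (44) and oil library 3 (37) and fewest without water library 1 or 3 (1 each). The 16 miRNAs called became 7 without a filter, 4 without scaling and 27 over all features of either table, and 1 to 18 when 1 library was left out. Higher and lower calls numbered 8 and 8 with the DESeq2 Wald test, 10 and 8 with all 12 libraries or a minimum of 10 counts in 3 libraries, and 19 and 8 over all features. Without scaling the median log2 difference over all classes was -0.21, and with upper quartile scaling -0.22, against 0.00 with TMM. Same-numbered libraries showed no clear common deviation (correlations of -0.06, 0.12 and 0.01 over all classes). Libraries of different number gave -0.215 to 0.171. Deviations from a mean of 3 libraries cannot exclude a pairing by number. With the replicate number as a block, 3 features and 4 miRNAs were called. The difference in class share, in percentage points, turned to -0.119 for misc_RNA without its leading transcript (main 12.2). For miRNA (main -0.673) it was 0.787 with copies counted once, 4.31 without the leading misc_RNA, and -3.86 to 2.01 with 1 library left out, above 0 without water library 2 (0.749), water library 3 (0.505) or oil library 2 (2.01). Features detected differed by 472 as deposited and by -32.3 at equal depth. At that depth oil library 2 was above every other library, and oil libraries 1 and 3 were below every water library. Summing pairs and leaving rRNA out of the fit (4 features called) were chosen after seeing the data. The causes were not tested.

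Among single features, miR-378a-3p turned to 0.69 on the log2 scale with pairs summed. Differences near 0 also changed sign. miR-148a-3p was at 0.022 with 12 libraries, 0.049 with the block and from -0.55 to 0.21 with 1 library left out, above 0 without oil library 2 only. Without oil library 1, at -0.55, miR-148a-3p was called lower in water. miR-21-5p was at -0.0022 without scaling, and from -0.11 to 0.31 with 1 library left out, below 0 without oil library 1, oil library 3 (-0.063) or water library 1 (-0.011). miR-486 was at 0.030 with 12 libraries, 0.031 over all features and -0.26 to 0.015 with 1 library left out, and let-7f-5p at -0.049 to 0.19. The misc_RNA transcript ENSRNOT00000090994.1 was at 0.0051 with copies counted once, 0.31 without a filter, and -0.22 to 0.20 with 1 library left out, above 0 without oil library 1 (0.091), oil library 3 or water library 2 (0.17). With 1 library left out, ENSRNOT00000082705.1 ran from -1.15 to 0.99 and ENSRNOT00000091277.1 from -2.35 to 0.17, both highest without oil library 2, and ENSRNOT00000079842.1 from -0.019, without water library 3, to 0.61. Over the named miRNAs and their alternatives, 283 values kept direction and call, 77 lost the call, 11 gained one and 12 reversed; over the other named features the numbers were 533, 2, 46 and 8.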
